A study of Mus musculus with 6 samples.

Results

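Autophagy and lysosome genes were followed in muscle satellite cells, the resident stem cells of skeletal muscle. The 57 genes comprised 24 of autophagosome formation, 7 of cargo recognition and mitophagy, 12 lysosomal hydrolases, 6 of the lysosomal membrane, lipid export and lysosomal gene control, and 8 subunits of the lysosomal proton pump. A gene was taken when the name printed for a non-control probe matched its symbol exactly. By that rule 56 of the 57 had a probe, through 77 probes in all, and 55 were tested, among 32110 genes tested on the array.

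Adult satellite cells came from male C57BL/6 mice aged 6 months (3 arrays), and young satellite cells from male C57BL/6 mice aged 3 months (2 arrays, replicates 1 and 3) or 2 months (1 array, replicate 2). The cells of both groups were sorted from dissociated muscle as positive for integrin alpha 7 and CD34 and negative for CD31, CD45, CD11b and Sca1, and no group carried an added allele or treatment. Their RNA was amplified by a whole transcriptome method for very small cell numbers, labelled with Cy3 and hybridised to single-colour Agilent arrays. The arrays are labelled as biological replicates without the number of mice behind each, so the p-values measure the spread between these samples.

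Autophagy carries cytoplasm, damaged organelles and protein aggregates to the lysosome: a kinase and a lipid kinase complex start a membrane, 2 ubiquitin-like conjugation systems couple LC3 and GABARAP proteins to its lipid, and the closed autophagosome fuses with a lysosome. There, acid hydrolases digest the cargo in a lumen that a rotary proton pump, the V-ATPase, keeps acidic. In satellite cells autophagy is known to clear mitochondria and proteins from cells that rest for long periods, and it is also drawn on when they leave rest.

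Between 41528 and 49957 probes per array stood well above background, with 47554 to 49957 on the adult arrays and 41528 to 45926 on the young arrays. The sort markers could be compared with their transcripts. Of 10 satellite cell markers, 4 were lower in adult cells (Itga7, Vcam1, Cdh15 and Calcr), or 40%. The background was 8.43% of all genes and 18.9% of the 8028 brightest, and this list was bright (median level 2.81). Its lower calls numbered 2 with quantile normalization, with cyclic loess or without young replicate 2, and 0 without any other array. Pax7, the transcription factor that defines these cells, differed by -0.34 ± 0.25 SE (limma adjusted p = 0.304). Of 11 leukocyte and macrophage markers tested, all 11 had a positive difference and 3 were higher in adult cells, or 27.3%. The background was 20.1% of all genes, and 23% of 8027 genes of like signal (median level -2.18, against -2.45 for the list). Of those 8027, 5592 had a positive difference, with a median of 0.56, against 0.49 for the list. The list's median was -0.01 with quantile normalization and -0.05 with median scaling. A rise beyond that of genes of like signal was not tested. The mean log2 level over the list was -0.96, -0.27 and -0.38 on adult arrays, against -1.68, -1.61 and -1.82 on young arrays. The summed signal of that list was 379 to 403 in adult and 220 to 426 in young samples, in units of each array's 75th percentile, nearly all of it from the Itgam probe, and 12.7 to 14.1 in adult and 8.39 to 10.2 in young samples without it. Its defining markers Ptprc and Itgam, which encode sorted-out CD45 and CD11b, were above background on all 6 arrays. The part of these markers in the results below was not tested, and in such bulk samples fewer cells of a type and less RNA per cell cannot be told apart.

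Most of the autophagy and lysosome genes had lower values in adult satellite cells. All values below are log2 signals relative to the array's 75th percentile, and all differences are adult minus young in log2 units on that scale. Of the 55 tested, 47 differences were negative and 8 positive, with a median of -0.48 against a median of 0.31 over all 32110 genes. Past the threshold of a limma adjusted p of 0.05 over all genes, 10 of the 55 were lower in adult cells, which is 18.2% against a background of 8.43% of all genes, and 2 were higher, or 3.64% against 20.1%. The values of the adult and young groups did not overlap for 37 of the 55, with adult below young for 32 (58.2%, background 21.6%) and above for 5 (9.09%, background 34%).

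Differences on these arrays varied with signal level, which bears on that background. The 8028 dimmest genes had a median difference of 1.44, and the 8028 brightest a median of -0.31. Among those brightest genes lay 31 of the 55, of which 8 were lower in adult cells, or 25.8% against a background of 18.9% of the brightest genes, and 1 was higher, or 3.23% against 10.3%. Adult lay wholly below young for 22 of those 31 (71%, background 47.4%). Among the 8027 genes ranked next in signal, the 17 autophagy and lysosome genes had a median of -0.61, against -0.05 over all genes of that range. Of these 17, 2 were called lower, or 11.8% against 10.6% of all genes of that range, and 0 higher, against 14.8%. Set among genes of like signal, the excess of lower calls was therefore smaller than over the whole array, and slight among these 17.

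**Figure D1:**
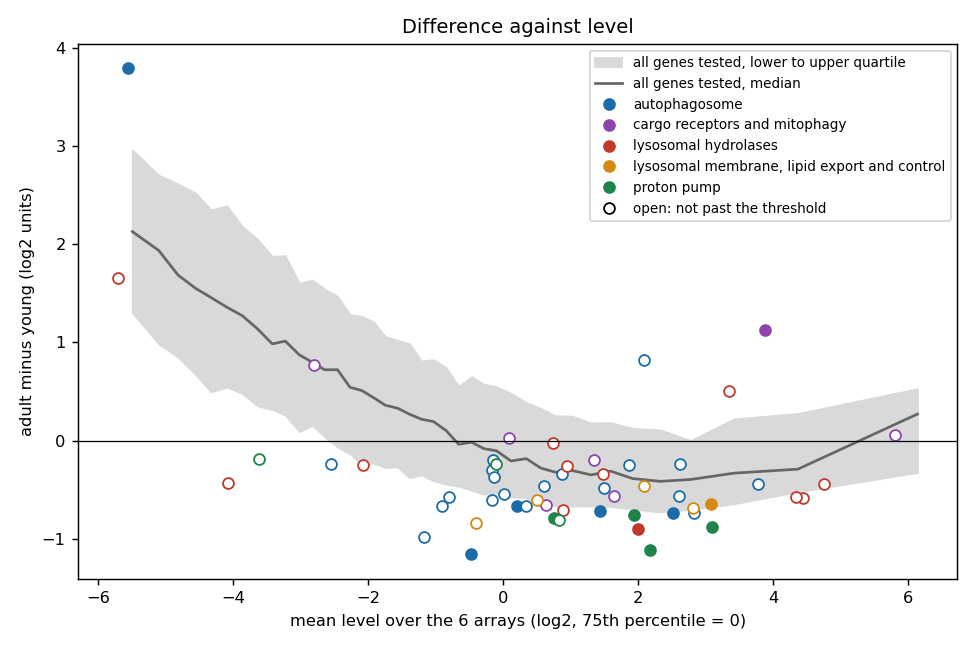
Difference, adult minus young in log2 units (vertical), against mean log2 level over the 6 arrays with the array's 75th percentile at 0 (horizontal). Circles are the 55 genes coloured by role, filled when past the threshold, and the grey line and band are the median and the lower to upper quartile of all genes tested in bins of level. The line falls from dim genes to those above the 75th percentile, most circles of the brighter genes lie below it, and Park2 and Atg4a lie far above it.

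The count of calls rested on the number of arrays and on the scaling. Left out in turn were adult replicates 1, 2 and 3 and young replicates 1 and 3. In each of these fits limma called 0 of the 55 genes lower and 1 higher, Atg4a. Between 16 and 26 of the 55 had an unadjusted p under 0.05. Over all 32110 genes, the same fits called 17 to 310 lower and 263 to 2073 higher, so few lower calls were left on the whole array. Without young replicate 2, the array of the 2-month mice, 3 of the 55 were lower (Atg3, Atp6v0d1 and Ctsd) and 3 higher (Atg4a, Ctss and Park2). Over all genes, 1260 were then lower and 6434 higher. The split of 2 higher and 10 lower became 3 and 5 with quantile normalization, 4 and 4 with cyclic loess, 3 and 6 with the percentile taken over probes detected on all arrays, and 1 and 40 with median scaling, under which the median over all genes was -0.06, 0.04, 0.45 and -0.23. Of all 32110 genes, 2778, 2144, 1783 and 8812 were lower in that order, against 2707 as reported. Those higher numbered 2874, 3126, 7904 and 3450, against 6441. With quantile normalization and with cyclic loess, the share of lower calls among the 55 was therefore close to that of all genes. The called genes changed too: of the 10 lower ones, quantile normalization called only Atp6v0d1, Ctsd and Wipi1, and cyclic loess only Atp6v0d1 and Wipi1, while both also called Atg13 and Atp6v1h lower. The 12 called genes kept their sign under the 7 other scalings and background corrections.

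**Figure D2:**
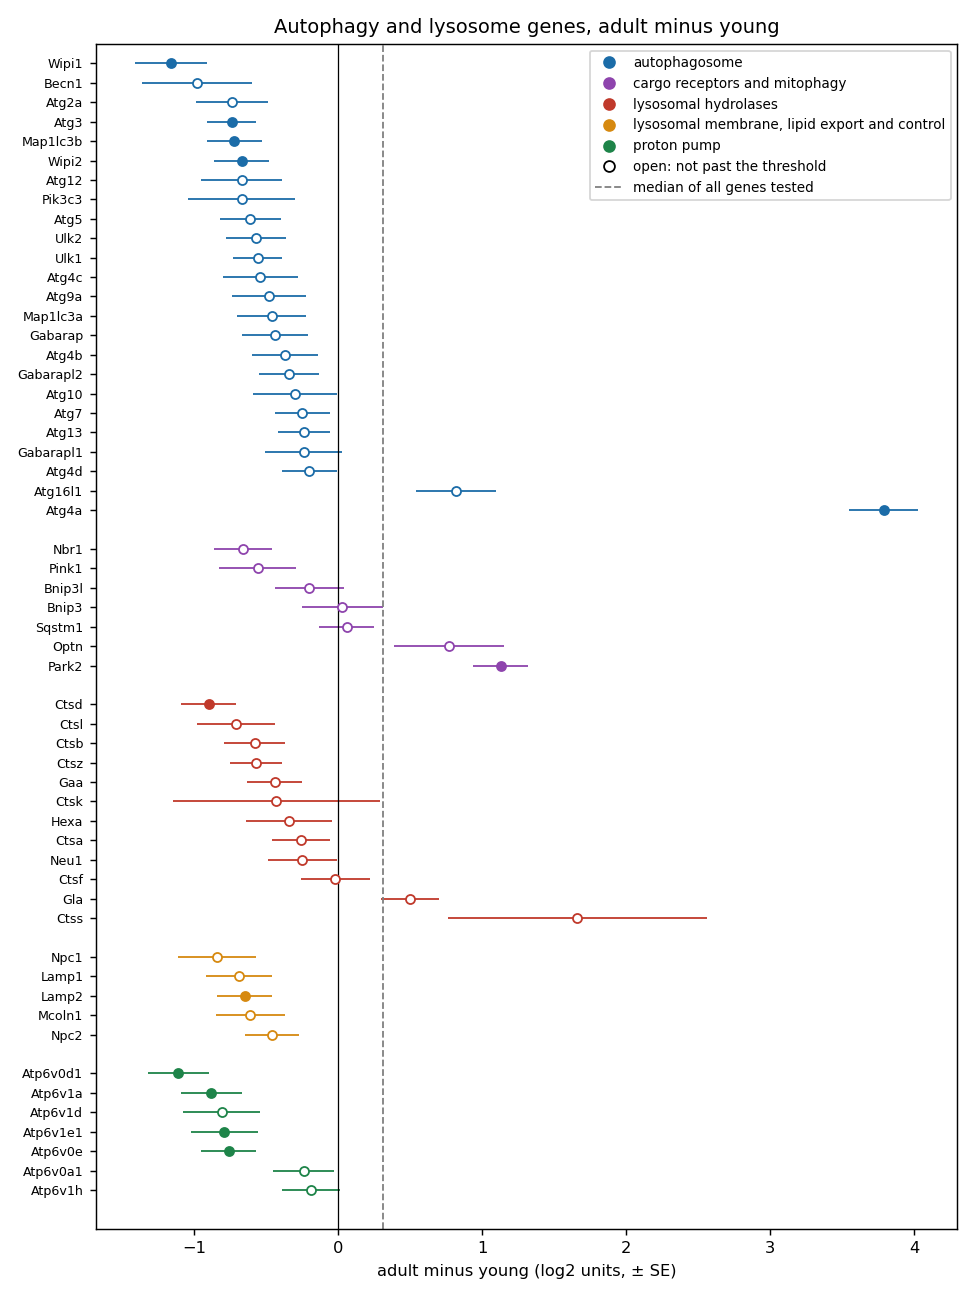
Difference, adult minus young in log2 units with its SE (horizontal), for each of the 55 genes tested, grouped and coloured by role. Filled circles are past the adjusted threshold, and the dashed line marks the all-gene median of 0.31. Every proton pump and lysosomal membrane gene lies left of 0, whereas cargo receptors and mitophagy genes lie on both sides.

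All 10 genes lower in adult cells have a promoter among the RefSeq sequences used here (GRCm38.p6, 250 bases before to 50 bases after the transcript start), as do 46 of the 57 in all. TFEB, the transcription factor known as a regulator of lysosomal genes, recognises a palindrome with the core CACGTG, and these promoters were searched for it in 2 lengths, each of which reads the same on both strands. The 8 letters TCACGTGA stood in the promoters of 8 of the 46 genes, against 1.12% of the 27025 genes with a promoter. The shorter CACGTG, which lies inside it, stood in 15 of the 46 (8.09% of genes). Of the genes lower in adult cells, 5 had TCACGTGA, and the same 5 made up those with CACGTG, for which the background was 17.6% of genes lower and 9.87% higher.

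The 5 lower genes that hold TCACGTGA were picked by both their call and the letters, so their shared direction was given beforehand. Their promoters are shown whole, in the direction of transcription, with the 8 letters in capitals. They lie at chr16:45158579-45158878 (plus strand, Atg3), chr8:105566015-105566314 (minus, Atp6v0d1), chr17:26676146-26676445 (plus, Atp6v0e), chr16:44139210-44139509 (minus, Atp6v1a) and chr7:142387778-142388077 (minus, Ctsd). Counted from the transcript start, the first capital stands at -72, -4, 2, -132 and -99 in that order.
Atg3: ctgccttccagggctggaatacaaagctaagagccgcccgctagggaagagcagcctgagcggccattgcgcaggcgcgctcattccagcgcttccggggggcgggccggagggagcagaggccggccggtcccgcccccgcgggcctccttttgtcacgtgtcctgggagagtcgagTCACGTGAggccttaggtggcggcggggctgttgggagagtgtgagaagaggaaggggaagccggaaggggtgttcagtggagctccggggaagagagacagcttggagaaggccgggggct
Atp6v0d1: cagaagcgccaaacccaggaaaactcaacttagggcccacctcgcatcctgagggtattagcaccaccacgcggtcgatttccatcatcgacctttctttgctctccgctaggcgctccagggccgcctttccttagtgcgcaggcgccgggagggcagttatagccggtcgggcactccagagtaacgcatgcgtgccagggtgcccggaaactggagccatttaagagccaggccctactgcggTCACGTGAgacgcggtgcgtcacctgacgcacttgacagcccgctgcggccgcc
Atp6v0e: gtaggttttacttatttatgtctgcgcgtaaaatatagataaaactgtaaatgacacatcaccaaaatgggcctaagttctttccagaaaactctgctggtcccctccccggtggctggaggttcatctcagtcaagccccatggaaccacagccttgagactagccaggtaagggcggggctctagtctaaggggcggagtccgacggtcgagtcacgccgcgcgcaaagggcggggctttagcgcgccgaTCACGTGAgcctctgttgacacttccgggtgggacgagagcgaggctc
Atp6v1a: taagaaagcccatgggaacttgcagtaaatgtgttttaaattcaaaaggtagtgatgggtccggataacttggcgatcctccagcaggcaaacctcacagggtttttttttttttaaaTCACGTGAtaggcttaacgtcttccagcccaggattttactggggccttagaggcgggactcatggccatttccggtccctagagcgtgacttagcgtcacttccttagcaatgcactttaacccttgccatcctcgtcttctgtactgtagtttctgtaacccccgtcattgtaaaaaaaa
Ctsd: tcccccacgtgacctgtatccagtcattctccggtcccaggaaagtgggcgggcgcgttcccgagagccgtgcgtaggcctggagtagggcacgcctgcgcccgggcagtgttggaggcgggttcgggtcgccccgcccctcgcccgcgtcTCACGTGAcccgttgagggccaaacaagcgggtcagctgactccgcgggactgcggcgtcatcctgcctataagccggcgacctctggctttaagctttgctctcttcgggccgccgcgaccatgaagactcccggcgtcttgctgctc

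The other 3 genes with the 8 letters did not pass the threshold, and the stretch around the letters is given for comparison. Mcoln1 (chr8:3500443-3500510, plus strand) holds them once, whereas Ctsa (chr2:164833730-164833814, plus) and Gla (chrX:134601163-134601255, minus) each hold them at 2 places.
Mcoln1: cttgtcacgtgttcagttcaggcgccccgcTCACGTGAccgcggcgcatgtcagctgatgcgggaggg
Ctsa: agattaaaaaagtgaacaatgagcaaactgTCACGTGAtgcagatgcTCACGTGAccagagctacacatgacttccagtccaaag
Gla: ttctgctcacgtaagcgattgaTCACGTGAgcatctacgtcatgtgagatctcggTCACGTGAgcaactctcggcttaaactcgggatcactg
Their differences were -0.61 for Mcoln1, the lysosomal calcium channel, -0.26 for Ctsa, a protective carboxypeptidase, and 0.50 for Gla, alpha-galactosidase A. Over the whole array, 234 tested genes had TCACGTGA in a promoter, of which 19.7% were lower and 2.14% higher in adult cells. Among the 14594 tested genes with a promoter, 12% were lower and 15.5% higher. Calls also varied with signal level: of the 8028 brightest genes, 18.9% were lower and 10.3% higher. Neither this comparison nor the share for CACGTG was matched for signal level, so a link between the letters and the calls was not tested. A match is a description of these letters and does not show a bound site.

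None of the genes that start the autophagosome membrane passed the test, and all of those named here except Atg16l1 had negative differences. Ulk1 and Ulk2, the kinases that begin the process, differed by -0.56 ± 0.17 SE and -0.57 ± 0.21 SE (limma adjusted p = 0.0544 and 0.0806), and adult lay below young on every array for both. Becn1, a scaffold of the lipid kinase complex (mm9, chr11:101151771-101152713), was at -1.05, -1.60 and -2.34 in adult cells, against -1.08, -0.39 and -0.57 in young cells. Its groups overlapped, since adult replicate 1 was level with young replicate 1, and the difference of -0.98 ± 0.38 SE did not pass (limma adjusted p = 0.0931). Pik3c3, the catalytic lipid kinase, differed by -0.67 ± 0.37 SE (limma adjusted p = 0.191), and Atg13, a partner of the ULK kinases, by -0.24. Atg16l1, which helps to direct LC3 to the membrane, differed by 0.82 ± 0.28 SE and adult lay above young on every array, but it did not pass (limma adjusted p = 0.0666). It was called higher under 9 of the 21 alternatives.

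Wipi1 and Wipi2, whose proteins read the phosphoinositide made by the lipid kinase, were past the threshold and lower in adult cells. Wipi1 (mm9, chr11:109443686-109443745) stood at -0.97, -0.73 and -1.44 in adult cells, against 0.04, 0.35 and -0.08 in young cells. The groups were clear of each other and adult cells stood 2.23-fold lower (a difference of -1.16 ± 0.25 SE, limma adjusted p = 0.0297). Wipi2 (mm9, chr5:143143197-143143256) was at -0.14, -0.30 and 0.07 in adult samples, against 0.65, 0.40 and 0.58 in young ones. Every adult array lay below every young array, and the fall was 1.59-fold (log2 difference -0.67 ± 0.19 SE, limma adjusted p = 0.0467).

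The 2 Wipi1 probes gave different sizes, and their sequences are shown for that reason. The brighter one, used above, is A_55_P1968808. The other, A_52_P497534 (mm9, chr11:109435140-109435199), differed by -0.20 ± 0.39 SE and its groups overlapped, at -2.11, -1.87 and -1.51 in adult cells, against -2.14, -1.89 and -0.86 in young cells. With the mean of both probes, Wipi1 differed by -0.68 and no longer passed (limma adjusted p = 0.0583). The second Wipi2 probe differed by -0.83 ± 0.34 SE, and the Wipi2 call was lost with quantile normalization, cyclic loess and the percentile over probes detected on all arrays (limma adjusted p = 0.0654, 0.103 and 0.0784).
A_55_P1968808: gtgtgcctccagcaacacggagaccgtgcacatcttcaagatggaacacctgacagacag
A_52_P497534: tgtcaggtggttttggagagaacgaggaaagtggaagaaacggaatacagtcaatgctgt

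Of 5 genes of the conjugation systems (Atg3, Atg5, Atg7, Atg10 and Atg12), Atg3 passed the test, and the differences of these 5 were negative. Atg3 (mm9, chr16:45183811-45183870), the E2-like enzyme that joins LC3 to lipid, was at 2.08, 2.22 and 2.17 in adult cells, against 2.93, 2.74 and 3.01 in young cells. Its spread within each group was small beside the gap, and adult cells were 1.67-fold lower (difference -0.74 ± 0.17 SE, limma adjusted p = 0.0333). Atg5, which is joined to Atg12 in the other conjugate, differed by -0.61 ± 0.21 SE and Atg12 by -0.67, neither past the threshold, although a second Atg12 probe differed by -1.12 ± 0.24 SE. Atg7, the E1-like enzyme of both systems, differed by -0.25 and Atg10, the E2-like enzyme for Atg12, by -0.30. Of the membrane-lipid genes, Atg2a, a lipid transfer protein, differed by -0.74 ± 0.25 SE (limma adjusted p = 0.0662) and Atg9a, a lipid scramblase, by -0.48.

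The 4 Atg4 proteases, which trim LC3 before conjugation and release it afterwards, did not move together. Atg4b, Atg4c and Atg4d differed by -0.37, -0.54 and -0.20, none past the threshold. Atg4a (mm9, chrX:137598740-137598799) was at -3.84, -3.45 and -3.69 in adult cells, against -7.07, -7.57 and -7.71 in young cells, where it was not well above background on any array. The adult mean lay 3.3-fold above the lowest signals well above background on the young arrays. That is not a firm lower bound, since signals above those can also fail to clear background. The log2 difference of measured values was 3.79 ± 0.24 SE (limma adjusted p = 0.00845), set against young signals not above background. The probe passed the filter on dim probes through the adult arrays alone, and its size depended on the background correction: the difference was 1.0 with normexp and the 75th percentile, 0.57 with normexp and quantile normalization and 0.60 in the series matrix values. It was not tested when probes had to be above background on all 6 arrays. Its dim single probe lay among the 8028 dimmest genes, of which 32% were called higher.

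The LC3 and GABARAP genes encode the ubiquitin-like proteins that coat the autophagosome, and Map1lc3b alone among the 5 passed. Map1lc3b (mm9, chr8:124121771-124121830) was at 1.14, 1.21 and 0.88 in adult cells, against 1.74, 1.72 and 1.93 in young cells. Adult lay below young throughout and was 1.65-fold lower (difference -0.72 ± 0.19 SE, limma adjusted p = 0.0386). This probe was printed 10 times per array, with an SD between the spots of 1 array of 0.036 to 0.055, against an SD between samples of 0.17 in adult and 0.12 in young cells. Its call was lost whichever array was left out (limma adjusted p = 0.0685 to 0.104).

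Map1lc3a stood at 0.69, 0.44 and -0.00 in adult cells, against 1.0, 0.67 and 0.84 in young cells (difference -0.46 ± 0.24 SE, limma adjusted p = 0.174). Gabarap was at 3.86, 3.60 and 3.20 in adult samples, against 3.99, 3.88 and 4.11 in young ones (difference -0.44 ± 0.23 SE, limma adjusted p = 0.173). The 2 groups overlapped narrowly for Map1lc3a and not for Gabarap, whose other probes differed by -0.48 and 0.36. Gabarapl1 was at 2.65, 2.77 and 2.08 in adult cells, against 2.54, 2.61 and 3.06 in young cells, and its groups overlapped in part (difference -0.24 ± 0.27 SE, limma adjusted p = 0.502). For Gabarapl2 the values were 0.76, 0.74 and 0.61 in adult cells, against 1.35, 0.81 and 0.97 in young cells (difference -0.34 ± 0.21 SE, limma adjusted p = 0.232). Whether Map1lc3b fell more than its relatives was not tested.

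**Figure D3:**
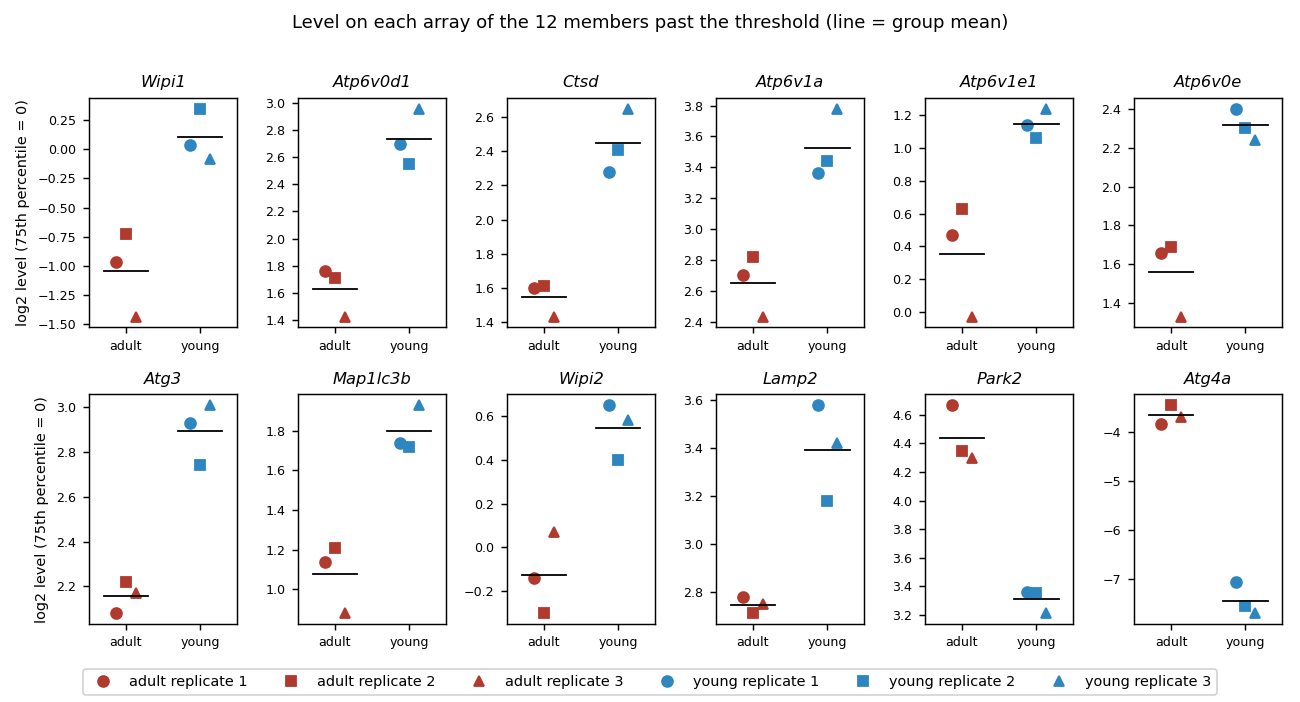
Log2 level with the array's 75th percentile at 0 (vertical, a separate scale in each panel) of the 12 genes past the threshold, on each adult array (left, red) and each young array (right, blue), with a line at the group mean. In every panel the adult and young points are apart, with adult below young in 10 panels and above in those of Park2 and Atg4a.

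Of the 7 cargo receptors and mitophagy genes, 0 were lower, against 8.43% of all genes and 18.9% of the brightest. In adult cells 1 was higher (14.3%, against 20.1% and 10.3%). The median difference was 0.03 and the median level 1.35. Sqstm1, which encodes p62, the receptor that links ubiquitinated cargo to LC3 and is itself degraded with it, stood at 6.06, 5.73 and 5.70 in adult cells, against 5.87, 5.68 and 5.76 in young cells. The groups overlapped (difference 0.06 ± 0.19 SE, limma adjusted p = 0.818), and its sign turned with the scaling, to -0.48 under median scaling. Nbr1, a related receptor, differed by -0.66 ± 0.20 SE (limma adjusted p = 0.0534) with adult below young on every array, and Optn, a receptor for mitochondria and bacteria, by 0.77 ± 0.38 SE (limma adjusted p = 0.156).

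Of the mitophagy genes, Pink1, the kinase that marks damaged mitochondria, and Park2, the ubiquitin ligase parkin that it activates, ran in opposite directions by sign. Pink1 differed by -0.56 ± 0.27 SE (limma adjusted p = 0.148). Park2 (mm9, chr17:12256168-12256227) was at 4.67, 4.35 and 4.30 in adult cells, against 3.36, 3.35 and 3.21 in young cells. The groups were wide apart and adult cells were 2.19-fold higher by this probe (log2 difference 1.13 ± 0.19 SE, limma adjusted p = 0.0218). The other probe of Park2 (mm9, chr17:11430502-11430561) was at 1.68, 1.91 and 1.47 in adult cells, against 2.06, 2.06 and 2.09 in young cells, a difference of the other sign (-0.38 ± 0.20 SE, limma adjusted p over all probes 0.18). With the mean of both probes, Park2 was no longer called. Both are printed because the direction for Park2 depends on which is read.
A_55_P1978226: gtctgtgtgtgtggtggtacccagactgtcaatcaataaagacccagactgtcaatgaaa
A_55_P2055379: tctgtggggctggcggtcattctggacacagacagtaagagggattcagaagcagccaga

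Bnip3 and Bnip3l, receptors in the mitochondrial outer membrane, did not pass on their brightest probes (0.03 and -0.20). For Bnip3l the 3 other probes gave -0.97 ± 0.21 SE, -0.81 ± 0.24 SE and -0.74 ± 0.18 SE, and the mean of its probes was called lower in adult cells. Among the 55 genes, 17 had more than 1 probe above the filter, and in 4 of them (Bnip3, Ctsa, Gabarap and Park2) the probes differed in sign.

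**Figure D4:**
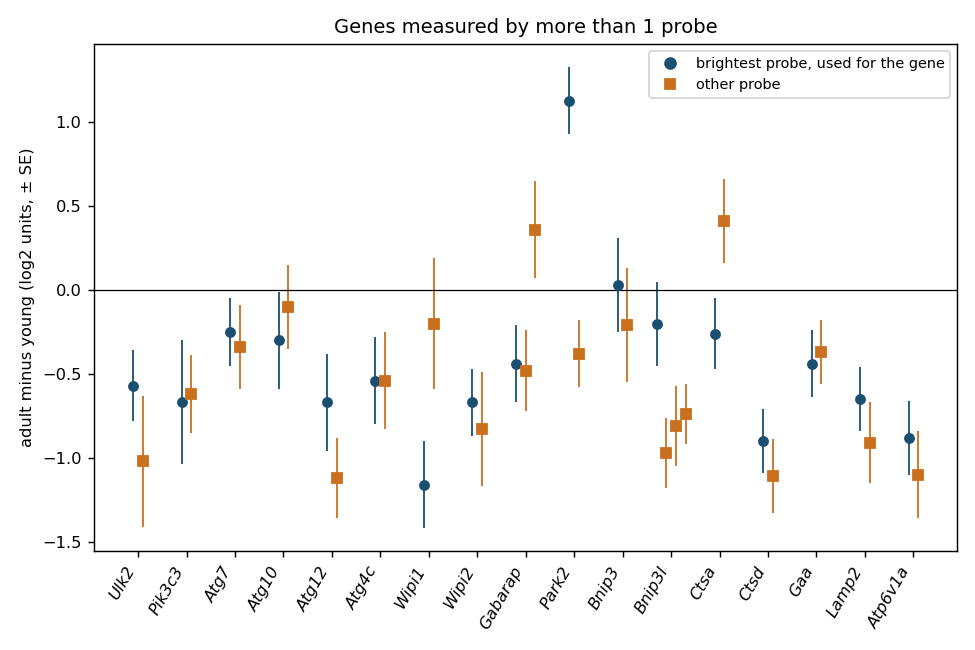
Difference, adult minus young in log2 units with its SE (vertical), for each probe of the 17 genes with more than 1 probe above the filter. Circles are the brightest probe, which stands for the gene, and squares the others. The probes of Lamp2, Ctsd and Atp6v1a lie together below 0, whereas those of Park2 lie on opposite sides of it.

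The lysosomal hydrolases had a median difference of -0.39 over 12 genes. Ctsd alone was lower in adult cells, or 8.33% against 8.43% of all genes and 18.9% of the brightest. Of these hydrolases 0 were higher, against 20.1% and 10.3%. Their median level was 1.21, so the share of the brightest genes is the nearer one in signal. Ctsd, the aspartic protease cathepsin D (mm9, chr7:149561962-149562021), was at 1.60, 1.61 and 1.43 in adult cells, against 2.28, 2.41 and 2.65 in young cells. The groups did not overlap and adult cells were 1.87-fold lower (difference -0.90 ± 0.19 SE, limma adjusted p = 0.0276). A second Ctsd probe gave -1.11 ± 0.22 SE. Ctsb, the cysteine protease cathepsin B (mm9, chr14:63761906-63761965), was at 4.30, 4.29 and 3.85 in adult cells, against 4.86, 4.59 and 4.73 in young cells. It too had every adult array below every young array, but the difference of -0.58 ± 0.21 SE did not pass (limma adjusted p = 0.0791).

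The cysteine proteases Ctsl and Ctsz differed by -0.71 ± 0.27 SE and -0.57 ± 0.18 SE (limma adjusted p = 0.0878 and 0.0609), and Ctsf by -0.02. Of the glycosidases, Gaa, which digests glycogen, differed by -0.44 ± 0.19 SE, Hexa by -0.34, Neu1 by -0.25 and Gla by 0.50 ± 0.20 SE, with adult above young on every array for Gla (limma adjusted p = 0.0957). Ctss and Ctsk, cathepsins known from macrophages and osteoclasts, were near background: Ctss cleared it on 2 of 3 adult and 1 of 3 young arrays, and Ctsk on 2 of 3 in each group. Ctss was at -4.20, -5.89 and -4.53 in adult cells, against -7.16, -4.65 and -7.78 in young cells, where replicate 2 lay within the adult range (difference 1.66 ± 0.90 SE, limma adjusted p = 0.185). Without young replicate 2 it was called higher in adult cells.

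All 5 genes of the lysosomal membrane and lipid export had every adult array below every young array, as did 21.6% of all genes and 47.4% of the brightest, and their median difference was -0.65. Of the 5, 1 was called lower, or 20% against 8.43% of all genes and 18.9% of the brightest. The median level of the 5 was 2.09, so this share was near that of genes of like signal. Lamp2, a membrane glycoprotein needed for fusion with autophagosomes (mm9, chrX:35777505-35777564), was at 2.78, 2.71 and 2.75 in adult cells, against 3.58, 3.18 and 3.42 in young cells. Adult cells were 1.57-fold lower (difference -0.65 ± 0.19 SE, limma adjusted p = 0.0476), and a second probe gave -0.91 ± 0.24 SE. Lamp1, its paralogue (mm9, chr8:13175277-13175336), was at 2.68, 2.62 and 2.10 in adult cells, against 3.05, 3.35 and 3.06 in young cells. The groups stood apart there as well, but the difference of -0.69 ± 0.23 SE did not pass (limma adjusted p = 0.0676). The cholesterol exporters Npc1 and Npc2 differed by -0.84 ± 0.27 SE and -0.46 ± 0.19 SE (limma adjusted p = 0.0621 and 0.103), and Mcoln1 by -0.61 ± 0.24 SE (limma adjusted p = 0.0928).

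No probe was named Tfeb. The array carries that gene under the older symbol Tcfeb (mm9, chr17:47929089-47929148), which the RefSeq gene table lists as a synonym, and it is given outside all counts. It stood at -1.60, -1.10 and -3.22 in adult cells, against -1.37, -1.29 and -1.48 in young cells. Adult replicate 3 was far below the rest and the groups overlapped (difference -0.60 ± 0.54 SE, limma adjusted p = 0.404).

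The proton pump had the largest share of lower calls of the 5 roles: 4 of the 7 subunits tested were lower in adult cells (57.1%, against 8.43% of all genes and 18.9% of the brightest), 0 were higher, and the median difference was -0.79. Its soluble V1 sector hydrolyses ATP and its membrane V0 sector carries protons. Adult lay below young on every array for 6 of the 7 (background 21.6%, and 47.4% among the brightest). Of the 4 pump calls, only that of Atp6v0d1 remained with quantile normalization and with cyclic loess, and both also called Atp6v1h lower. For comparison, 4 of the 24 autophagosome genes were lower (16.7%) and 1 was higher (4.17%), with a median difference of -0.51.

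In the V0 sector, Atp6v0d1 (mm9, chr8:108048778-108048837), which couples the sectors, was at 1.76, 1.71 and 1.42 in adult cells, against 2.70, 2.55 and 2.96 in young cells. This gap was wide relative to the spread, and adult cells were 2.15-fold lower (difference -1.11 ± 0.21 SE, limma adjusted p = 0.0246). Atp6v0e (mm9, chr17:26836332-26836391), a small membrane subunit, was at 1.66, 1.69 and 1.33 in adult cells, against 2.40, 2.30 and 2.24 in young cells. It was 1.69-fold lower without overlap (log2 difference -0.76 ± 0.19 SE, limma adjusted p = 0.0355). Atp6v0a1, the proton path subunit, differed by -0.24 ± 0.21 SE (limma adjusted p = 0.385).

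In the V1 sector, the catalytic subunit Atp6v1a (mm9, chr16:44085826-44085885) was at 2.70, 2.82 and 2.43 in adult cells, against 3.36, 3.44 and 3.78 in young cells. It was 1.84-fold lower with the groups apart (log2 difference -0.88 ± 0.21 SE, limma adjusted p = 0.0342), and its second probe gave -1.10 ± 0.26 SE. Atp6v1e1 (mm9, chr6:120745623-120745682), of the outer stalk, was at 0.47, 0.63 and -0.03 in adult cells, against 1.14, 1.06 and 1.24 in young cells. Adult replicate 3 was the lowest, no adult value reached a young value, and adult cells were 1.73-fold lower (difference -0.79 ± 0.23 SE, limma adjusted p = 0.0485). Atp6v1d, of the central rotor, differed by -0.81 ± 0.27 SE (limma adjusted p = 0.0624) and Atp6v1h, a regulatory subunit with a dim probe, by -0.19.

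Atp6v1b2, the other subunit of the catalytic ring, failed the filter on dim probes and was not tested. It was not well above background on any adult array, at -5.23, -5.68 and -6.03, and was so on 2 of 3 young arrays, at -4.83, -4.83 and -4.74. No fold is given for it.

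The arrays lie in 2 rows of the slide by their labels, with adult replicate 1 and young replicates 1 and 2 in row 1 and the other 3 in row 2. In each row 1 of the groups has a single array, and because the groups of the 12 called genes do not overlap, their sign within a row was given beforehand. The sizes within rows 1 and 2 were -0.86 and -1.40 for Atp6v0d1, -0.75 and -1.13 for Ctsd, and 1.32 and 1.12 for Park2. With the row as a block in the fit, Atg3, Atp6v0d1 and Ctsd were lower and Atg16l1, Atg4a and Park2 higher.

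Further genes of the same organelles, taken from lists of textbook members, gave medians close to that of the 55. Among 28 other autophagy genes, 2 were lower and 1 higher in adult cells, 7.14% and 3.57% against the backgrounds of 8.43% and 20.1%, with a median of -0.48. Pik3r4, the regulatory subunit of the lipid kinase complex, was 1.85-fold lower, and Wdr45l, a further WIPI family gene now named Wdr45b, was 1.81-fold lower (limma adjusted p = 0.031 and 0.0445). Calcoco2, a cargo receptor known as NDP52, was 3.17-fold higher (limma adjusted p = 0.0434). It stood at -2.07, -2.16 and -1.67 in adult cells, against -4.28, -2.64 and -3.98 in young cells. The call was lost with quantile normalization, median scaling and cyclic loess. It was also lost with normexp and quantile normalization, the series matrix values and the mean of a gene's probes. No array except young replicate 2 could be left out without losing all 3 calls.

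Of 27 other lysosomal enzymes and cofactors, 6 were lower (22.2%, background 8.43%) and 0 higher at the adjusted threshold. An unadjusted p under 0.05 was reached by 10 of the 27, among them Ctsc, a protease with a positive difference of 1.96 ± 0.64 SE. Their median was -0.44. Lgmn, the asparaginyl protease legumain, was 2.21-fold lower, Arsb, a sulfatase, 2.05-fold, Ppt1, a thioesterase, 1.85-fold, and Naglu, a glucosaminidase, 1.77-fold (limma adjusted p = 0.0284, 0.0282, 0.0302 and 0.0296). Of 14 other membrane and sorting genes, 3 were lower (21.4%, background 8.43%) and 0 higher. These were M6pr (2.17-fold) and Igf2r (1.63-fold), the receptors that carry hydrolases to the lysosome, and Laptm4b (1.76-fold), a membrane protein (limma adjusted p = 0.0192, 0.0448 and 0.0356). Without single arrays the lower calls numbered 0 to 5 for the enzymes and 0 to 2 for the membrane genes, highest without young replicate 2 in both. They numbered 3 and 2 with quantile normalization, 2 and 2 with cyclic loess, and 8 and 6 with normexp and the 75th percentile. Over all genes these settings called 2778, 2144 and 4129 lower. Among genes of like signal, 10.6% were lower for the enzymes (median level -0.11) and 18.9% for the membrane genes (0.95).

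Of 17 other proton pump genes, 15 were tested, 2 were lower and 3 higher (13.3% and 20%, against 8.43% and 20.1% of all genes). Atp6v0a2, a second proton path isoform, was 3.24-fold lower (difference -1.70 ± 0.22 SE, limma adjusted p = 0.0165), at -1.61, -1.44 and -2.04 in adult cells, against 0.08, 0.06 and -0.13 in young cells. Atp6ap1, an accessory subunit, was 1.9-fold lower (limma adjusted p = 0.0292). The 3 higher genes were dim isoforms known from kidney, epididymis or osteoclasts. Atp6v0d2 (5.25-fold) cleared background on 2 of 3 young arrays, Atp6v1g3 (8.86-fold) and Atp6v1b1 (2.24-fold) on 1 of 3, and all of them on the 3 adult arrays (limma adjusted p = 0.0222, 0.0323 and 0.0392), so these folds rest partly on young signals not above background. With only probes above background on all 6 arrays, 0 of this list were higher and 3 lower. Without young replicate 2, 2 were higher and 2 lower, and without any other array 0 were higher and at most 1 was lower.

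Among 20 genes of TORC1 and TFEB control, 5 were lower in adult cells (25%, background 8.43%) and 0 higher (background 20.1%). An unadjusted p under 0.05 was reached by 8 of the 20, and the median was -0.52. The list's median level was -0.27, and 10.6% of genes of like signal were lower. The 5 were the 5 subunits of Ragulator, the scaffold that holds the Rag GTPases on the lysosomal surface, where amino acids activate the growth kinase TORC1. They were singled out as a complex after their values were seen, and the array lists them under older names. Lamtor4 (0910001L09Rik) was at 1.34, 1.68 and 1.09 in adult cells, against 2.52, 2.49 and 2.51 in young cells, and was 2.19-fold lower in adult (limma adjusted p = 0.0247). Lamtor2 (Robld3) was at -1.18, -0.97 and -0.91 in adult cells, against -0.31, 0.20 and 0.31 in young cells, and was 2.13-fold lower (limma adjusted p = 0.0285). Lamtor5 (Hbxip), Lamtor1 (2400001E08Rik) and Lamtor3 (Mapksp1) were 1.78-fold, 1.75-fold and 1.73-fold lower (limma adjusted p = 0.0283, 0.0335 and 0.0358).

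For all 5 Ragulator genes the sign stayed negative under the 7 other scalings and background corrections. The number called was 4 with quantile normalization, 2 with cyclic loess, 1 without young replicate 1, 2 without young replicate 2 and 0 without any other array, where adjusted p ran from 0.0524 to 0.0944. It was 4 with the mean of a gene's probes, where the highest limma adjusted p was 0.12, and 0 with the replicate number as a block. Of the other genes of this list, Mtor, the kinase itself, differed by -0.26 ± 0.20 SE, Rptor, its TORC1 partner, by -0.94 ± 0.29 SE, and Tcfe3, a TFEB relative, by -0.65 ± 0.19 SE, none past the threshold (limma adjusted p = 0.339, 0.0556 and 0.0503).

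**Figure D5:**
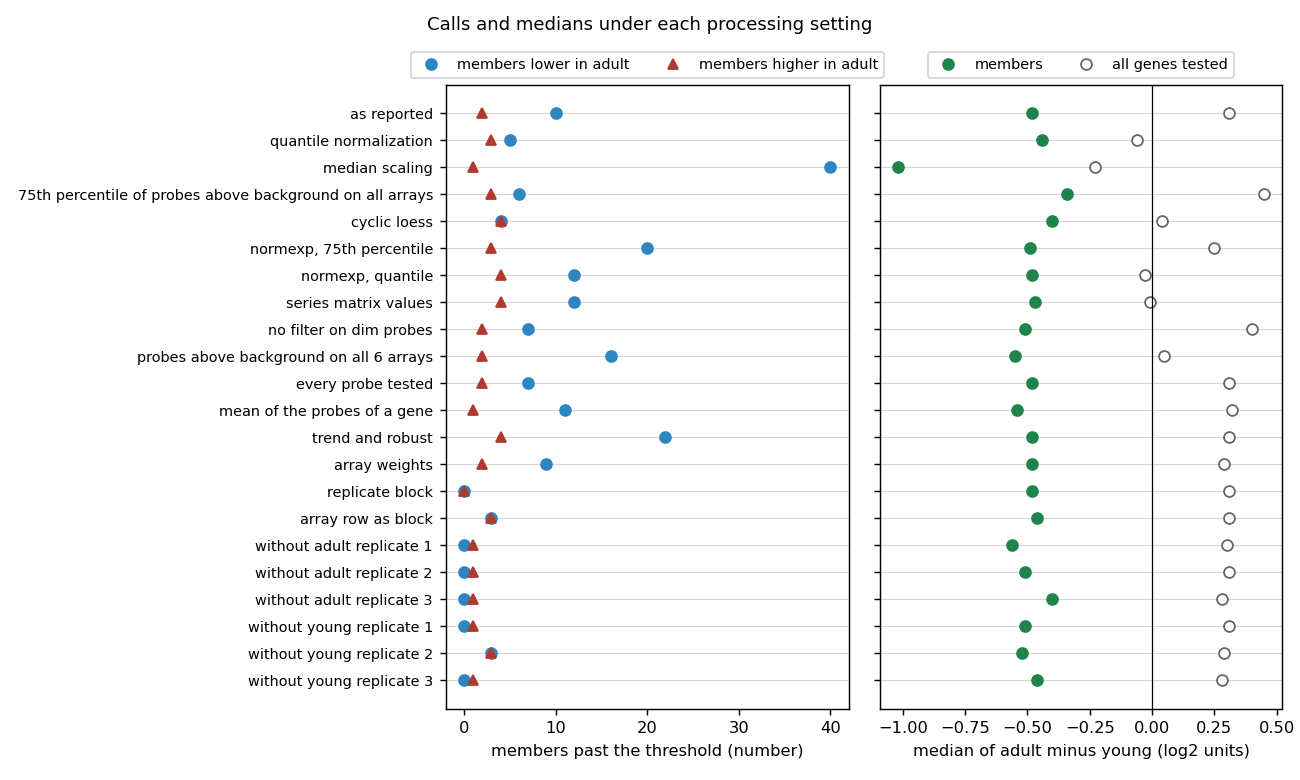
Left, the number of autophagy and lysosome genes past the adjusted threshold that were lower (circles) or higher (triangles) in adult cells under each processing setting (rows). Right, the median difference, adult minus young in log2 units, of these genes (filled) and of all genes tested (open). The number of lower genes ran from 0 to 40, whereas the median of these genes lay below 0 and below the all-gene median in every row.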

How the data were processed

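Satellite cells of adult mice (3 arrays) and young mice (3 arrays) were profiled on Agilent single-colour arrays of 62976 spots. Per the file headers, spot intensity was extracted and background-subtracted by the authors with Feature Extraction 10.7.3.1, against mm9 annotation. The deposited series matrix holds log2 values that lay within 0.000106 of log2 signals obtained here by normexp correction (offset 50) and quantile normalization, so its scale is log2, with a median of 7.56 in each column. For the reported values, the 3671 control spots and outlier spots were left out, spots of a probe were averaged, and the array's 75th percentile was subtracted from the log2 processed signal. Of 55681 probes, the 48414 that cleared background on 3 or more arrays were used, and the brightest probe stood for its gene. The test was limma 3.58.1 (lmFit and eBayes, R 4.3.3), two-sided, adult minus young, with Benjamini-Hochberg adjustment over 32110 genes and a threshold of 0.05; the steps were tested on simulated data.

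The genes and lists were chosen with earlier results of these data known. Values on every array are given for each gene past the threshold and for a preset 12 (Tfeb, Map1lc3a, Map1lc3b, Gabarap, Gabarapl1, Gabarapl2, Sqstm1, Lamp1, Lamp2, Ctsd, Ctsb and Becn1). From each further pathway list the up to 4 genes of smallest p past the threshold are named, and all of those past it for the proton pump and TORC1 lists. Alternatives covered the scaling, background correction, filter, choice of probe, variance model, blocks and each array left out. All arrays shared 1 slide and 1 scan, so neither could be a block. No spot was saturated. Array number limits the precision. Promoters and current gene names came from RefSeq tables (GRCm38.p6), and no coordinate was converted. Same-numbered adult and young samples did not deviate together (correlations of -0.00387, -0.0931 and -0.142), so the numbers were not taken as pairs.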

Additional observations from a re-analysis of the deposited data

How the results depend on the processing

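Against 10 genes lower and 2 higher as reported, the number lower was 5 with quantile normalization, 6 with the percentile over probes detected on all arrays, 4 with cyclic loess, 3 with the array row as a block, 40 with median scaling, 20 with normexp and the 75th percentile, 16 with only probes that cleared background on each of the 6 arrays, and 22 with a trended, robust variance. Over all genes the number lower was 2707 as reported. In the settings just listed it was, in the same order, 2778, 1783, 2144, 1199, 8812, 4129, 3584 (of 25953) and 4434. The number of the 55 genes higher was 4 with cyclic loess, normexp and quantile normalization, the series matrix values, and the trended, robust variance, and 1 with median scaling and with the mean of a gene's probes. Over all genes it was 3126, 4258, 4413, 7643, 3450 and 6887 in that order, against 6441 as reported. With the replicate number as a block, 0 of the 55 were lower and 0 higher (limma, 16 of 55 at an unadjusted p under 0.05), as were 0 of all genes. Leaving out each array in turn gave 0 to 3 lower and 1 to 3 higher, against 17 to 1260 lower and 263 to 6434 higher over all genes. The cause of these moves was not tested, except that leaving out an array leaves fewer samples.

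Over the 20 genes followed, 419 gene and alternative pairs gave 288 on the same side of the threshold, 116 no longer past it, 12 newly past it and 3 reversed. The reversed values were -0.48 for Sqstm1 under median scaling, -0.06 for Sqstm1 without adult replicate 1 (up to 0.13 without other arrays), and 0.04 for Gabarapl1 under cyclic loess. The median of the autophagy and lysosome genes was negative and below that of all genes under all 21 alternatives, from -1.02 to -0.34. Signal over background limited Atg4a, Ctss, Ctsk and Atp6v1b2.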

Other observations

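Marker lists of other cell types were tested beside the leukocyte and satellite cell lists. Of 8 mural cell markers, 4 were higher in adult cells and 1 lower, of 5 adipocyte markers 3 were higher, and of 8 fibro-adipogenic markers 2 rose and 2 fell. Of 10 myofibre markers 1 was higher and 2 lower. Of all genes, 20.1% were higher and 8.43% lower, against 50% and 12.5% of the mural cell list, 25% and 25% of the fibro-adipogenic list, 10% and 20% of the myofibre list, and 60% higher among adipocyte markers. Without single arrays the higher calls numbered 0 to 3 for the mural list and 1 to 2 for the adipocyte list. The mural median was 1.24, and 1.29 with quantile normalization. The adipocyte median was 1.28, but 0.35 with quantile normalization and 0.36 with cyclic loess. That list was dim (median level -2.87), and 23% of genes of like signal were higher. Of 8 endothelial markers 0 passed the adjusted limma threshold and 0 had an unadjusted p under 0.05. Pdgfra and Lep were above background on no array. Tyrobp, an adaptor of myeloid receptors, was at -2.13, 0.40 and 0.48 in adult cells, against -5.85, -6.53 and -6.14 in young cells (limma adjusted p = 0.0158 on measured values). In young cells it was not well above background on any array. Its adult mean lay 31.2-fold above the lowest signals well above background on the young arrays, which is not a firm lower bound. It passed the filter on dim probes through the adult arrays alone. Without adult replicate 3 it no longer passed (limma adjusted p = 0.0597).

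Of the surface markers of the cells sorted out, Ptprc differed by 0.49 ± 0.34 SE and Itgam by 0.39 ± 0.28 SE, neither past the threshold (limma adjusted p = 0.278 and 0.304). Pecam1, which encodes CD31, differed by -0.81 ± 0.48 SE and Ly6a, which encodes Sca1, by 0.12 ± 0.77 SE, neither past it (limma adjusted p = 0.222 and 0.909). The part of any of these cell types in the levels of autophagy and lysosome genes was not tested.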
